A study of Homo sapiens with 6 samples.

Results

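SREBF2 and 7 of its known targets, HMGCS1, IDI1, FDFT1, SQLE, CYP51A1, DHCR7 and INSIG1, were followed through RNA sequencing of SK-N-BE(2), a human neuroblastoma cell line. All 8 were lowest in replicate 3 and highest in replicate 2, both in cells given the control siRNA (NC) and in cells given the siRNA against Prp19 (siPrp19), an order that 17.2% of all genes tested shared. Between replicates 2 and 3 of NC, levels differed from 1.57-fold for FDFT1 to 3.97-fold for INSIG1, while the siPrp19 mean of the same genes stood between 83.3% (IDI1) and 103% (FDFT1) of the NC mean. The 8 genes are 8 of 58302 genes in the files and of the 14462 genes whose mean reached 1 FPKM, which were tested. FPKM counts the fragments of a gene relative to its exon length and to the depth of the library, so that levels can be compared between genes. These genes were chosen by the very difference between replicate numbers described here, so their values are given as a description and without a test. The set was named for cholesterol synthesis and uptake, but none of the 8 encodes an uptake receptor. Of the 8, 6 encode synthesis enzymes and 2, SREBF2 and INSIG1, encode proteins that control the pathway.

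Cells make cholesterol from acetyl-CoA through mevalonate, isoprenoid intermediates, squalene and lanosterol. When sterols are scarce in the endoplasmic reticulum, SCAP carries the precursor of SREBP2 to the Golgi, where the proteases encoded by MBTPS1 and MBTPS2 release a transcription factor that raises the synthesis enzymes and lipoprotein uptake. When sterols are plentiful, INSIG proteins hold SCAP back, and the LXR receptors raise genes of cholesterol export. The pathway is active in many growing tumor cells, which need membrane.

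Each group held 3 samples, numbered 1 to 3 in the labels. All 6 were SK-N-BE(2) cultures in MEM/F12 with serum, transfected either with NC or with siPrp19. The labels give 72 h of transfection and the study's methods a shorter time, so the time is uncertain. A single cell line and a single siRNA were used, so an effect of the siRNA's sequence and an effect of losing Prp19 cannot be told apart. The study's methods call the samples biological replicates, while the labels give only their numbers and do not say whether they came from separate cultures, so p-values measure the spread between these samples.

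PRPF19, which encodes the splicing factor Prp19, was lower in every siPrp19 sample. It stood at 53.1, 53.1 and 64.9 FPKM in NC 1, 2 and 3 and at 21.8, 28.5 and 33.6 FPKM in siPrp19 1, 2 and 3, so the groups did not overlap. The means were 57.0 ± 6.83 FPKM in NC and 27.9 ± 5.91 FPKM in siPrp19 (SD, n = 3 each; log2 difference −1.04, SE 0.19; adjusted p = 0.9999 in limma without a block on replicate number). With the block the SE was 0.087 and the adjusted p 0.19. With the block on the recovered reads (limma voom) the adjusted p was 1.38e-11.

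Between 19058784 and 24181791 reads lay on genes in each sample. Genes of the mitochondrial genome took 2.74 to 3.09% of them in replicates 1 and 2 of both groups and 5.06 and 5.39% in replicate 3. Replicate 3 thus stood apart in its mitochondrial share as well as in the cholesterol genes, and the part of that share in the results below was not tested. All 7 noradrenergic neuroblastoma markers were above 1 FPKM (summed level 1986 to 2102 FPKM in NC and 1865 to 2408 FPKM in siPrp19), though DBH, the enzyme that makes noradrenaline, was at 41.9, 26.7 and 3.94 FPKM in siPrp19 1, 2 and 3 and as low as 3.49 FPKM in NC 3. Both leukocyte markers summed to at most 0.192 FPKM, both endothelial markers to at most 0.0945 FPKM, both epithelial markers to at most 2.49 FPKM and the 3 Schwann cell markers to at most 3.31 FPKM in any sample. The 3 fibroblast markers summed to between 38.4 and 50.6 FPKM, mostly from COL1A1, with DCN at 3.00 to 4.56 FPKM and COL1A2 at or below 0.0453 FPKM in every sample. The 4 markers of the mesenchymal neuroblastoma state summed to 17.3 to 44.4 FPKM in replicates 1 and 2 and 30.1 to 36.2 FPKM in replicate 3. PRRX1 and TWIST2 stayed below 1 FPKM in every sample. FOSL1 was highest in replicate 2 of both groups and SNAI2 in replicate 3 of both, so the sum mixes unlike patterns. In bulk RNA, fewer cells of a type and less RNA per cell cannot be told apart.

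SREBF2 (chr22:41833079-41907308, hg38, plus strand) encodes SREBP2 itself and had the highest level of the 8. It was at 76.0, 89.3 and 48.1 FPKM in NC 1, 2 and 3 and at 73.7, 88.5 and 51.8 FPKM in siPrp19 1, 2 and 3. The group means were 71.1 ± 21.0 and 71.3 ± 18.5 FPKM (SD, n = 3 each), so nearly equal, while replicate 3 was the lowest of each group. Within same-numbered pairs the log2 differences, siPrp19 minus NC, were −0.04, −0.01 and 0.10.

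INSIG1 (chr7:155297776-155310235, plus strand) encodes the sterol-regulated protein that retains SCAP. Its level was 29.3, 41.9 and 10.6 FPKM in NC 1, 2 and 3 and 27.8, 43.9 and 9.35 FPKM in siPrp19 1, 2 and 3. Replicate 2 exceeded replicate 3 by 3.97-fold in NC and by 4.70-fold in siPrp19, the widest difference of the 8. The pairs gave log2 differences of −0.08, 0.07 and −0.17, so INSIG1 was lower in 2 pairs and higher in 1.

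Among the enzymes, HMGCS1 (chr5:43289395-43313512, minus strand) makes HMG-CoA, early in the mevalonate route. Its level was 59.5, 71.5 and 27.7 FPKM in NC and 54.8, 68.7 and 22.7 FPKM in siPrp19, in the order of the replicate numbers. Replicate 2 was 2.58-fold above replicate 3 in NC and 3.03-fold above it in siPrp19, and HMGCS1 was lower with siPrp19 in 3 of 3 pairs (log2 −0.12, −0.06 and −0.29). In HMGCS1, 15.0% of exon bases overlap an opposite-strand gene, and the sources used here do not say whether counting used strand.

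IDI1 (chr10:1039152-1049170, minus strand) interconverts the isoprenoid building blocks downstream of mevalonate. It was measured at 18.6, 22.7 and 13.0 FPKM in NC and at 15.4, 19.5 and 10.2 FPKM in siPrp19. The groups overlapped, but siPrp19 was lower in every pair by a similar amount (log2 −0.27, −0.21 and −0.34; mean −0.28, SD 0.06), the largest mean difference of the 8. IDI1 shares 14.8% of its exon bases with IDI2-AS1 on the opposite strand.

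FDFT1 (squalene synthase, chr8:11795573-11839309, plus strand) and SQLE (squalene epoxidase, chr8:124998497-125022283, plus strand) make and oxidize squalene. FDFT1 was at 56.7, 62.8 and 39.9 FPKM in NC and at 57.7, 66.3 and 40.1 FPKM in siPrp19. SQLE was at 41.5, 48.1 and 27.4 FPKM in NC and at 42.2, 45.1 and 23.5 FPKM in siPrp19. FDFT1 was the only member above NC in 3 of 3 pairs, by log2 0.02, 0.08 and 0.01, and it also had the narrowest difference between replicates 2 and 3. For SQLE the pairs gave log2 0.02, −0.09 and −0.22, with no common direction.

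CYP51A1 (lanosterol 14-alpha demethylase, chr7:92112151-92134803, minus strand) had the lowest level of the 8, and DHCR7 (chr11:71428193-71452868, minus strand) catalyzes the last step of a branch of the pathway. CYP51A1 was at 5.28, 7.25 and 3.09 FPKM in NC and at 5.30, 6.34 and 3.19 FPKM in siPrp19. These values are uncertain, since 83.2% of its exon bases are shared with other annotated genes and 3 pseudogenes carry its name. DHCR7 was at 36.7, 41.7 and 18.8 FPKM in NC and at 31.0, 37.4 and 19.2 FPKM in siPrp19. Pairs 1 and 2 were lower with siPrp19 for DHCR7 (log2 −0.24 and −0.16) and pair 3 was not (0.03), while for CYP51A1 only pair 2 was lower (0.01, −0.19 and 0.04).

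**Figure D1:**
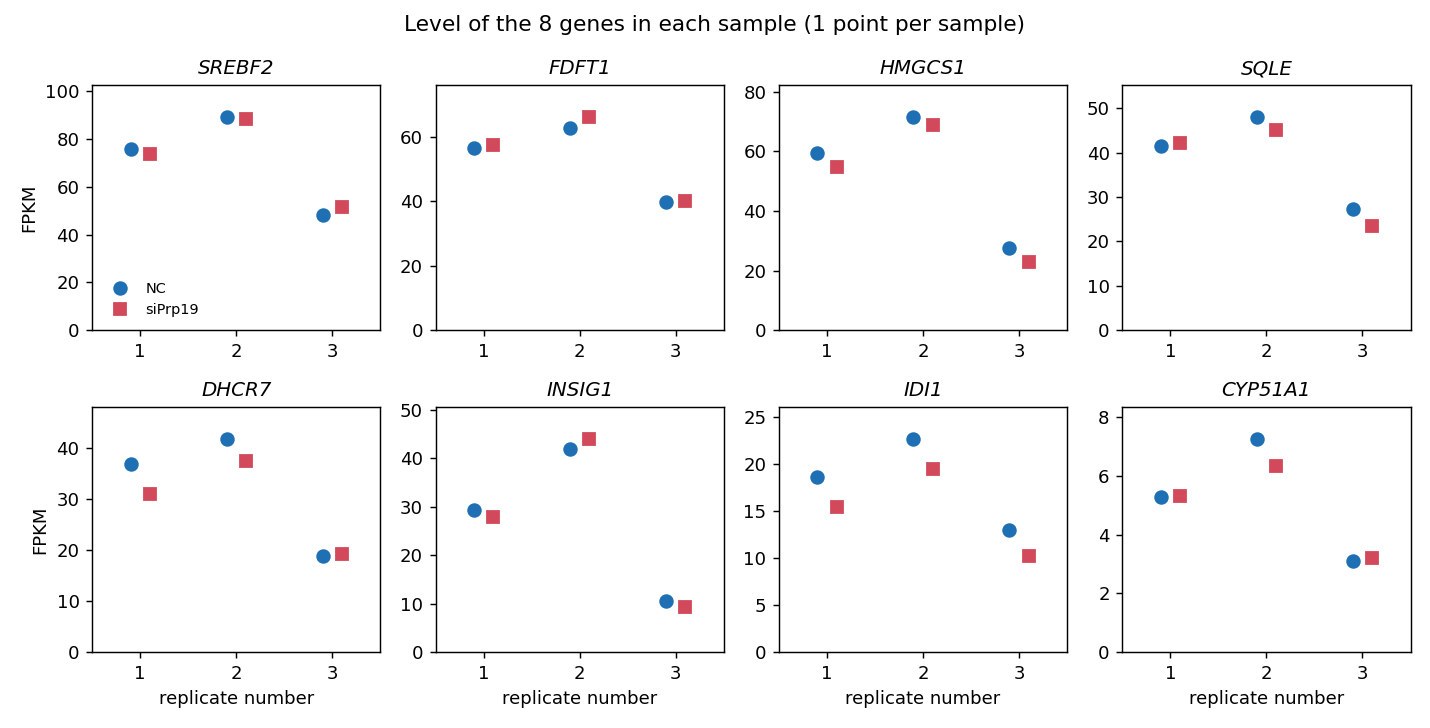
Level in FPKM (vertical axes, from 0, each with its own scale) of the 8 genes against replicate number, with 1 point per sample, circles for NC and squares for siPrp19. In every panel both points of replicate 3 are the lowest and both points of replicate 2 the highest of their groups, and the points of a pair lie close together.

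Ordered by NC mean, the levels ran SREBF2, FDFT1, HMGCS1, SQLE, DHCR7, INSIG1, IDI1 and CYP51A1, and the order of the siPrp19 means was the same. FDFT1 (53.1 ± 11.9 FPKM) and HMGCS1 (52.9 ± 22.6 FPKM, SD, n = 3) could not be separated in NC. HMGCS1 was above FDFT1 in replicates 1 and 2 of NC and below it in replicate 3. Compared within each sample, SREBF2 was always above FDFT1, SQLE above DHCR7 and IDI1 above CYP51A1. The other neighbours changed order between samples. The place of CYP51A1 is uncertain, as 83.2% of its exon bases are shared with other genes. Only IDI1 (18.1 ± 4.87 FPKM) and CYP51A1 (5.21 ± 2.08 FPKM) were neighbours whose means lay farther apart than either SD. Counting error was small beside this spread, since even the fewest reads, those of CYP51A1 in NC replicate 3, numbered 219.

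To separate the numbers from the knockdown, the variation of each gene on log2(FPKM + 0.1) was divided between replicate number, group and the remainder. Replicate number took from 86.7% (IDI1) to 99.6% (INSIG1) of the variation of the 8 genes, with a median of 98.3%, against a median of 80.9% over all genes tested. Group took from 0.051% (SREBF2) to 12.8% (IDI1), with a median of 0.91%, against 5.68% over all genes. These are shares of each gene's own total, so choosing genes by replicate differences raises the replicate share and lowers the group share. The lower group share therefore does not show a smaller change with knockdown. High shares for replicate number were thus common in these libraries, and 40.3% of all genes tested had a share above that of IDI1.

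The 3 numbers did not differ by equal steps. Replicate 3 lay below replicate 1 by log2 differences from −0.52 (FDFT1) to −1.51 (INSIG1) and below replicate 2 by −0.69 (FDFT1) to −2.10 (INSIG1), on means over both groups. Replicate 2 lay above replicate 1 by 0.15 (SQLE) to 0.59 (INSIG1). The order of replicate 2 highest and replicate 3 lowest in both groups held for 8 of 8 genes and for 17.2% of all genes tested. Replicate 3 was the lowest of both groups for 27.7% of all genes. The F-test of replicate number in limma (FDR under 0.05) called 49.6% of all genes and 8 of the 8, which had been chosen on that contrast, so the count says nothing further about them.

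**Figure D2:**
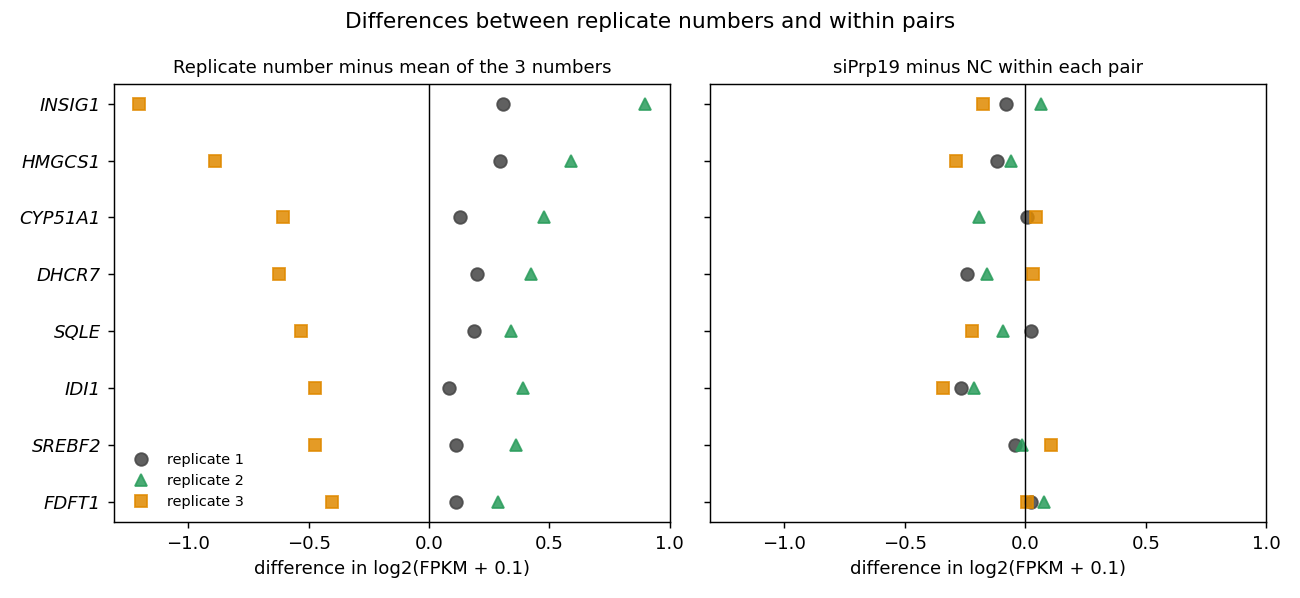
Left, the mean of each replicate number minus the mean of the 3 numbers. Right, siPrp19 minus NC in each pair; both in log2(FPKM + 0.1) on the same axis, with 1 marker per replicate number and the 8 genes ordered by their range. On the left the squares of replicate 3 run from −0.40 to −1.20, and on the right no difference goes beyond −0.34 or 0.10.

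For the knockdown itself, the median log2 difference of the 8 genes, siPrp19 minus NC, was −0.08, and that of all genes tested was −0.004. A signed median over all genes lies near 0 when rises and falls balance. Without regard to sign, the median difference of all genes tested was 0.10. Among the 8, 6 had a mean difference below 0 and 2 above it, from −0.28 (IDI1) to 0.04 (FDFT1). HMGCS1 and IDI1 were lower in all 3 pairs, FDFT1 was higher in all 3, and the other 5 changed sign between pairs. Such agreement was common in the pathway, where 18 of 62 other genes were lower and 11 higher in all 3 pairs. The share of all genes tested whose pairs agree is not given, so the count is not read as particular to the 8. The fit without a block called 0% of all genes (225 had an unadjusted p under 0.05), and with replicate number as a block it again called 0% (2265 had an unadjusted p under 0.05), so 0 of the 8 were called in either. Blocked voom on the recovered reads called 7.01% of all genes, and 1 of the 8, IDI1, in the lower direction. The block on genes averaging 5 FPKM or more called 1.57% of genes and 0 of the 8. Since the choice of the 8 drew on this contrast too, nothing is read from these counts. SREBF2 and CYP51A1 also changed sign with the processing, since their log2 differences ranged from −0.03 to 0.04 and from −0.09 to 0.0035 over 12 other settings. Without the block, leaving out 1 sample turned the sign for 7 of the 8, all but IDI1 (−0.50 to −0.02), with the widest range for INSIG1 (−0.64 to 0.57). With the block it turned the sign for 2, SREBF2 and CYP51A1. There a sample left out takes its partner out of the comparison too, so the 2 counts are not alike.

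The promoters of members are shown because the genes moved together and because the letters that SREBP2 and its partner NF-Y bind are known. The RefSeq table (GRCh38.p14) held windows from 250 bases before to 50 bases after the start of 6 of the 8 genes, not of FDFT1 and SQLE. The stretches below run 5′ to 3′ on the gene's strand, with capitals for the sterol regulatory element core (TCACNCCAC, in SREBF2) and the NF-Y box (CCAAT or its complement ATTGG).
SREBF2: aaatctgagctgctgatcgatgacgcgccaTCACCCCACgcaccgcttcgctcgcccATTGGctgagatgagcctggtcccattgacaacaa
INSIG1: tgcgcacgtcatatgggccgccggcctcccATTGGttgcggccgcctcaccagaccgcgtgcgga
HMGCS1: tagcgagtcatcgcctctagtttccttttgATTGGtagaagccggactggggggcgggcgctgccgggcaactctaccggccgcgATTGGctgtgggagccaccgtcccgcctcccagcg
IDI1: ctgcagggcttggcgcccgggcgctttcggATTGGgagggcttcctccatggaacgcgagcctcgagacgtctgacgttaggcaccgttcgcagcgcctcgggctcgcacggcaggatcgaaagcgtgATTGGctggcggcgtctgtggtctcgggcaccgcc
DHCR7: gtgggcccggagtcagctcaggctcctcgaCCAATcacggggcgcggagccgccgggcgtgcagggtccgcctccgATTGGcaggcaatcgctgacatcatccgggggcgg

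These stretches lie at chr22:41832942-41833033 (plus), chr7:155297678-155297742 (plus), chr5:43313478-43313597 (minus), chr10:1049202-1049364 (minus) and chr11:71448407-71448517 (minus), in the order printed. Searched on both strands, the NF-Y box stood in 5 of the 6 genes, all but CYP51A1, where 39.7% of all 27305 genes with a window held it. Genes can have several windows, and by window it stood in 6 of the 10 of these genes and in 34.6% of all 35116. HMGCS1, IDI1 and DHCR7 each held a pair of NF-Y boxes in the stretch shown. Where a gene had several usable windows, the stretch came from that with the most matches. The share of all genes with such a pair was not computed. The sterol element core stood only in SREBF2 of the 6, 133 bases before the start, and in 1.39% of all genes (1 of 10 windows here and 1.13% of all windows). Among the other pathway genes described next, 54 had a window, of which 32 held the NF-Y box and 0 the sterol element core. The GC box GGGCGG was found in 6 of 6 genes and 48.3% of all genes (9 of 10 windows here and 45.0% of all windows). The E-box CACGTG was found in INSIG1 and 8.77% of all genes (1 of 10 windows here and 7.26% of all windows). Of the 54 other pathway genes with a window, 49 held the GC box and 8 the E-box, so the GC box was common across the pathway. A match describes letters only, and a missing match says only that those letters are not in the window. No capitals overlap in the stretches shown.

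Beside the 8, 68 other genes of the pathway were listed, and 62 of them passed the filter of 1 FPKM. The 8 were taken from this same pathway for their pattern, so the 62 are what remained after that choice. The F-test of replicate number called 39 of the 62, where 49.6% of all genes were called. Of these 39, 22 were lowest in replicate 3 of both groups, 13 were highest there and 4 were neither. Regardless of the test, 25 of the 62 were lowest in replicate 3 of both groups (27.7% of all genes) and 21 were highest there (30.6% of all genes). Both directions were thus present in the pathway, as they were among all genes tested. The directions of all genes called by the F-test are not given, so the splits of called genes have no share beside them.

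Among the other synthesis enzymes 12 of 16 were called for replicate number, where 49.6% of all genes were called. Of these 12, 10 were lowest in replicate 3. MSMO1, a sterol methyl oxidase, was at 52.3, 67.9 and 19.7 FPKM in NC and at 48.0, 62.4 and 17.1 FPKM in siPrp19 (adjusted p = 0.00047). MSMO1 repeated the order of the 8, with replicate 2 highest and replicate 3 lowest. LSS and HSD17B7 were lowest in replicate 3 but highest in replicate 1, with LSS at 18.4, 15.6 and 11.1 FPKM and HSD17B7 at 5.27, 4.72 and 2.83 FPKM in NC. PMVK, a kinase of the mevalonate steps, went the other way, at 28.2, 24.0 and 35.0 FPKM in NC and 32.0, 29.2 and 35.8 FPKM in siPrp19. Not every enzyme was called, and FDPS (25.4, 22.3 and 26.0 FPKM in NC), LBR and EBP were among those that were not.

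In the control of SREBP, 6 of 10 genes were called for replicate number (49.6% of all genes), 2 lowest and 4 highest in replicate 3. INSIG2, the relative of INSIG1, had the widest range of the pathway, at 28.7, 37.7 and 5.82 FPKM in NC and 25.4, 37.9 and 4.96 FPKM in siPrp19 (adjusted p = 0.00041). RNF139, a ubiquitin ligase of the same membrane, was lowest in replicate 3 as well, at 14.6, 22.2 and 12.6 FPKM in NC. MBTPS1, MBTPS2, RNF145 and SPRING1 were highest in replicate 3 of both groups. SCAP was nearly flat, at 8.85, 9.94 and 9.04 FPKM in NC, and neither SCAP nor SREBF1, the gene for the fatty acid branch of the factor, was called.

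For uptake and transport inside the cell, 8 of 11 genes tested were called for replicate number (49.6% of all genes). Of those called, 5 were lowest and 2 highest in replicate 3. LRP8, a lipoprotein receptor, was highest in replicate 3 and lowest in replicate 2, the reverse of the 8 genes, at 4.20, 2.25 and 6.93 FPKM in NC and 4.15, 2.12 and 6.46 FPKM in siPrp19 (adjusted p = 0.0017). SCARB1, which takes up cholesterol from HDL, was lowest in replicate 3, at 36.9, 35.1 and 18.0 FPKM in NC and 33.9, 32.3 and 17.2 FPKM in siPrp19 (adjusted p = 0.0014). VLDLR, STARD4 and TMEM97 were also called and lowest in replicate 3. NPC1, which exports cholesterol from lysosomes, was at 2.10, 2.55 and 1.91 FPKM in NC and was not called.

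On the side of efflux, storage and LXR, 5 of 10 genes were tested and 3 were called for replicate number (49.6% of all genes). MYLIP, a ubiquitin ligase and LXR target, had the order of the 8, at 11.3, 14.1 and 5.63 FPKM in NC and 9.17, 14.5 and 5.00 FPKM in siPrp19 (adjusted p = 0.0027). SOAT1, which esterifies cholesterol for storage, was highest in replicate 3, and NR1H2, an LXR receptor, was highest in replicate 2. ABCA1, the main cholesterol exporter, was below the filter, at 0.751, 1.17 and 0.517 FPKM in NC.

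Of the fatty acid genes 5 of 11, and of the isoprenoid branches 5 of 9, were called for replicate number (49.6% of all genes). SCD, which desaturates fatty acids, was at 244, 339 and 96.4 FPKM in NC and at 211, 306 and 86.6 FPKM in siPrp19 (adjusted p = 0.0004), the order of the 8 at a higher level. FASN, ACLY, FADS1 and FADS2 were not called, and FASN was at 76.5, 66.6 and 66.1 FPKM in NC. FNTB, a farnesyltransferase subunit, was lowest in replicate 3, while COQ2, an enzyme of coenzyme Q synthesis, was highest there, at 2.33, 1.49 and 3.86 FPKM in NC.

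**Figure D3:**
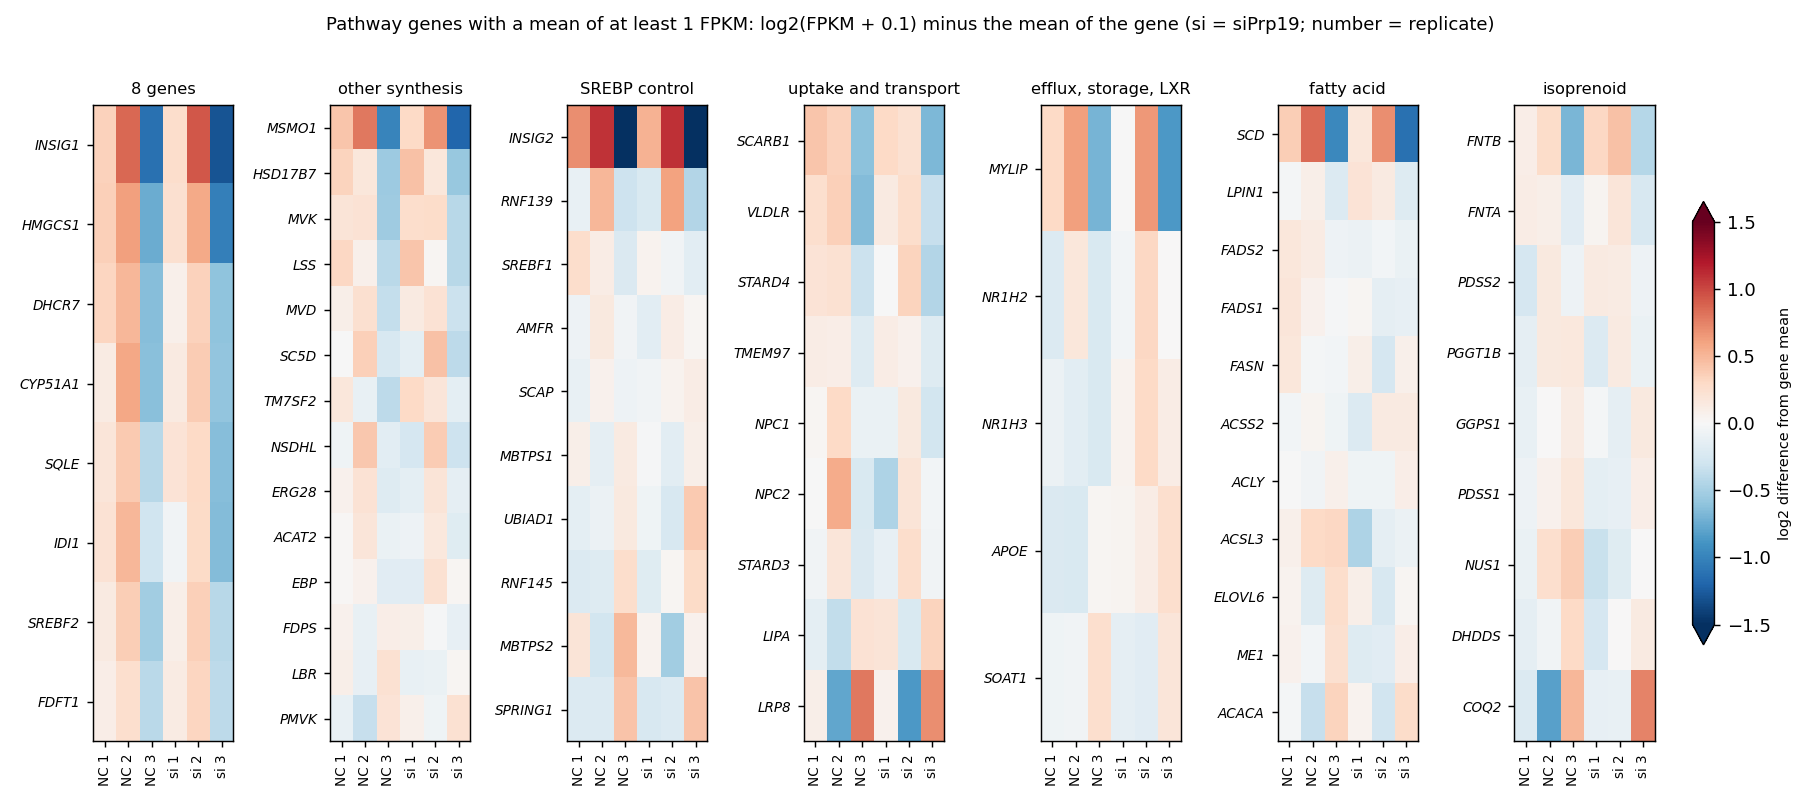
Colour gives log2(FPKM + 0.1) minus the mean of the gene over its 6 samples, for the 8 genes and 58 of the other pathway genes tested, sorted in each panel by replicate 3. Columns are samples (si, siPrp19), and the scale ends at −1.5 and 1.5, which INSIG2 passes in replicate 3. Blue in both columns of replicate 3 fills the panel of the 8 genes and the tops of the others, with the opposite colour at the bottom of most.

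With knockdown, 0 of the 62 other genes were called without the block and 0 with it. Their median log2 difference was −0.05, with 39 below 0 and 23 above. Blocked voom called 4 of the 62, all lower with siPrp19, no larger a share than the 7.01% of all genes. The 4 were lower in 3 of 3 pairs, but a blocked fit favours genes whose pairs agree, so this adds no support. Of the 62, 18 were lower and 11 higher in all 3 pairs, called or not. ACSL3, which activates long fatty acids, was at 11.1, 13.0 and 13.0 FPKM in NC and at 7.59, 9.59 and 9.88 FPKM in siPrp19, with no overlap (log2 −0.46, SE 0.06; adjusted p = 1.6e-05 in blocked voom). NUS1, a subunit of the enzyme that makes dolichol, was at 15.1, 19.3 and 21.0 FPKM in NC and at 12.8, 14.2 and 16.2 FPKM in siPrp19 (log2 −0.35, SE 0.06; adjusted p = 0.00056 in blocked voom). The other two were MBTPS2 (log2 −0.28, SE 0.08; adjusted p = 0.024) and SCD (log2 −0.17, SE 0.05; adjusted p = 0.023). ACSL3 and NUS1 were also called with the block on genes of at least 5 FPKM (adjusted p = 0.033 and 0.048 in limma).

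Genes near the ends of each list give the range of the rest, and of those named none but MBTPS2, ACSL3 and NUS1 was called in any of these fits. In synthesis, MSMO1 (log2 −0.15) and LBR (−0.13) were lowest and TM7SF2 (0.22) and PMVK (0.16) highest. In uptake and transport, NPC2 (−0.21) stood against LIPA (0.20). MYLIP (−0.14) and SOAT1 (−0.09) were the lowest of the 5 efflux genes tested, and NR1H3 (0.31) and APOE (0.27) the highest, both higher in 3 of 3 pairs. SREBP control ran from MBTPS2 (−0.27) and INSIG2 (−0.13) to SCAP (0.08) and RNF145 (0.09). The fatty acid list held ME1 (−0.17) next to ACSL3 and reached 0.05 for ACSS2 and 0.09 for LPIN1. Among isoprenoid genes PGGT1B (−0.11) followed NUS1, and FNTB (0.21) and COQ2 (0.34) were highest.

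**Figure D4:**
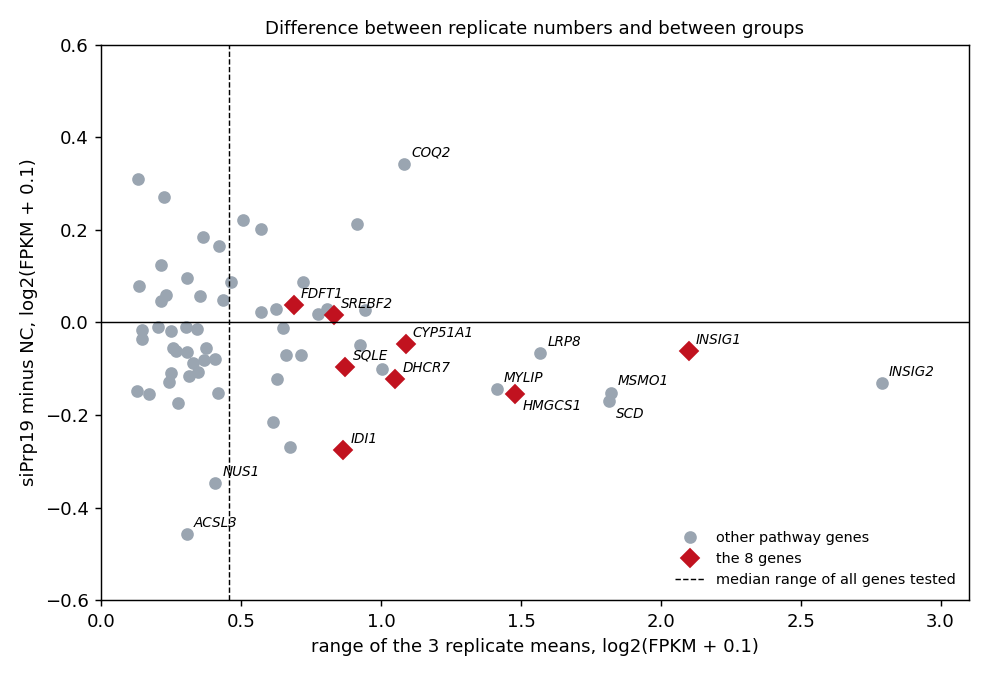
Mean difference siPrp19 minus NC (vertical axis) against the range of the 3 replicate means (horizontal axis), both in log2(FPKM + 0.1), with diamonds for the 8 genes and circles for 58 other pathway genes; some circles are named. The 8 genes range from 0.69 to 2.10 on the horizontal axis, right of the dashed median of all genes tested (0.46), and lie between −0.28 and 0.04 on the vertical axis.

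Several genes outside the pathway had nearly the same profile over the 6 samples. Likeness was measured as Pearson's r between log2(FPKM + 0.1) of a gene and the mean standardised profile of the 8, over 7905 other genes averaging 5 FPKM or more. The points share their libraries and the pattern of replicate numbers, and 643 genes (8.13%) reached an r of 0.95, while 474 lay at or below its negative. The 10 most alike were SCD (r = 0.9996), LOX, ALKBH5, TMEM45A, GGA2, MSMO1, TICRR, MXI1, CCP110 and P4HA1 (r = 0.997). P4HA1, a subunit of the enzyme that hydroxylates proline in collagen, was at 120, 192 and 25.9 FPKM in NC and 106, 198 and 24.9 FPKM in siPrp19. MXI1, a repressor that competes with MYC for MAX, was at 45.7, 61.7 and 15.6 FPKM in NC and 35.9, 54.8 and 12.8 FPKM in siPrp19. Among 46 other pathway genes of that level, 9 reached an r of 0.95, with SCD, MSMO1, INSIG2 and MYLIP among them.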

How the data were processed

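RNA of 3 NC and 3 siPrp19 samples was sequenced from NEBNext Ultra RNA libraries. The authors deposited 1 file of FPKM values per sample, and the submitters' processing notes name HISAT2 2.0.5, featureCounts 1.5.0-p3 and hg38. The annotation and the strand setting are not given in the sources used here. With exon lengths of GENCODE 29, which held 58039 of the 58302 identifiers, FPKM gave whole reads (within 0.1) in every sample for 36022 of 37521 genes above 0 (96.0%). These recovered reads give the depth and served voom.

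Values were tested as log2(FPKM + 0.1) over the 14462 genes whose mean reached 1 FPKM, in limma 3.58.1 (R 4.3.3, eBayes with trend, two-sided), with Benjamini-Hochberg adjustment over all genes. A pseudocount understates changes of low genes. siPrp19 was compared with NC without a block, and with replicate number as a block beside it. Replicate number was tested by the F-test of its coefficients in the model with group. The replicate numbers of the labels pair the samples, since deviations from the group means correlated at 0.38, 0.57 and 0.64 in same-numbered pairs. Samples of different numbers reached at most 0.045, but deviations within a group sum to 0. Positive same-numbered correlations therefore push the others down, and the low value adds no separate support. The fits were also run on simulated data with known changes, where a minimum recovery was required of the blocked fit and the F-test but not of the fit without a block.

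Members and gene lists were chosen with earlier results of these data known. Genes named were the 8 members, PRPF19, a set of core pathway genes, genes called in the fits without and with the block, the 2 highest and 2 lowest differences and the 2 widest replicate ranges of each list, and the 10 most alike genes. Values of some listed genes are not reported here, though the counts include them. Names beyond these were chosen after their values were seen. Alternatives were a pseudocount of 1, other filters, TPM, quantile normalization, limma with trend off and robust on, voom and a GC and length correction. Each sample was also left out in turn. Leaving out both samples of replicate 3 was chosen after seeing the data. Other tables and plots used Python 3.11.15, pandas 2.3.3, numpy 2.4.6 and matplotlib 3.10.9.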

Additional observations from a re-analysis of the deposited data

How the results depend on the processing

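With replicate number as a block, the knockdown fit still called 0 genes and 0 of the other pathway genes. The block combined with voom on recovered reads called 1012 and 4, and combined with a mean of at least 5 FPKM it called 124 and 2. With trend off and robust on, 1 gene was called, which is neither PRPF19 nor in the pathway lists. Leaving out each sample in turn called 0 to 0. The F-test of replicate number called 7175 genes and 39 other pathway genes. It called 4214 and 23 with no filter on low values, and 2789 and 16 without replicate 3, a comparison of replicates 1 and 2 alone. Leaving out each sample in turn gave 4019 to 5542 genes and 25 to 31 pathway genes, with changes of over 1.5 times in the gene count without NC replicate 2 (4313) or siPrp19 replicate 2 (4019), and in the pathway count without these or NC replicate 3 (25 each). With fewer samples per number the fit has fewer degrees of freedom.

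The median share of variation between replicate numbers for the 8 genes was 88.5% without replicate 3 and 79.7 to 99.1% over the samples left out in turn. Their median log2 difference, siPrp19 minus NC, was −0.42 to 0.23 without the block when a sample was left out, because the groups then hold unequal replicate numbers. With the block it was −0.10 to −0.06, where a sample left out takes its partner out of the comparison too. Over the other 12 settings it was −0.08 to −0.05. The fewest reads behind a value of the 8 genes were 219. Other causes of these changes were not tested.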
